A study of Mus musculus with 6 samples.

Results

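Immunoglobulin genes encode the heavy and light chains of antibodies. In mice the heavy chain locus lies on chromosome 12, the kappa light chain locus on chromosome 6 and the lambda light chain locus on chromosome 16. The members described here are the genes of the deposited counts table that the GENCODE M21 annotation of the GRCm38 assembly types as immunoglobulin variable, diversity, joining or constant genes. There were 106 such genes among the 16627 of the table, out of 264 that the annotation holds. The 98 variable segments among them comprised 47 of the 113 annotated heavy, 50 of the 100 kappa and 1 of the 3 lambda segments. The 8 constant region genes were Ighm, Igha, Ighg1, Ighg2b, Ighg2c, Ighg3, Igkc and Iglc2, of 13 annotated. None of the 19 diversity and none of the 14 joining segments was in the table, and Ighd, Ighe, Iglc1, Iglc3 and Iglc4 were not analysed here.

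RNA was sequenced from inguinal white adipose tissue (iWAT), a subcutaneous fat depot that also holds vessels, immune cells and a lymph node. The Celf1 AKO group (3 libraries) carried a knockout of Celf1, an RNA-binding protein gene, in adipocytes, and the Flox control group (3 libraries) came from Celf1 fl/fl littermates. Both groups were kept at 4 °C for 6 h, and the study set out to examine the part of Celf1 in the beiging of iWAT. The Cre line, and the age, sex and strain of the mice, do not appear in the sources used here, nor whether each library is 1 mouse. A p-value here thus speaks of library-to-library spread, which may be technical. In whole tissue, more cells of a type and more RNA per cell cannot be told apart.

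Library totals lay between 54835348 and 64979443 counts, so that 1 CPM (the TMM-scaled count unit used below) stood for 54.95 to 67.75 counts. Celf1 itself had values of 52.5, 49.8 and 63.0 CPM in Celf1 AKO (libraries listed as replicates 1, 2 and 3 throughout), against 126, 114 and 144 CPM in Flox control. The groups did not overlap (log2 fold change -1.21 ± 0.14 SE, edgeR quasi-likelihood adjusted p = 0.122). Markers of adipocytes, the labelled tissue's main cells, summed to 27508 to 34195 CPM in Celf1 AKO, against 32029 to 36005 CPM in Flox control. Of the 16366 genes tested, edgeR called 2 higher and 0 lower in Celf1 AKO at an adjusted p under 0.05.

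An antibody gene is assembled in each B cell by joining 1 variable segment to the short segments before a constant region. A B cell first uses the mu constant region Ighm, which gives IgM, and may later switch to a gamma (IgG) or alpha (IgA) constant region. Plasma cells, the end stage of the B lineage, secrete antibody and fill much of their mRNA pool with heavy and light chain transcripts. A clone of such cells carries 1 rearranged heavy and usually 1 rearranged light chain, so the variable segments found in a tissue reflect which clones are present.

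Immunoglobulin transcripts were more abundant in Celf1 AKO replicates 1 and 2 than in any other library. Summed over the 106 genes they reached 360, 646 and 128 CPM in Celf1 AKO, against 113, 38.4 and 57.2 CPM in Flox control. The group means were 378 ± 260 CPM in Celf1 AKO against 69.6 ± 38.9 CPM in controls (SD, 3 libraries each), and their ratio was 5.43. All 3 Celf1 AKO sums lay above all 3 Flox control sums, with replicate 3 only just above Flox control replicate 1. The separation of this total depended on Ighm, the mu constant region. Over the 105 genes other than Ighm, sums were 297, 531 and 60.1 CPM in Celf1 AKO, against 94.95, 9.95 and 21.7 CPM in Flox control. Without Ighm, Celf1 AKO replicate 3 thus lay below Flox control replicate 1, and the groups overlapped. Heavy chain constant genes had sums of 195, 358 and 74.8 CPM in Celf1 AKO, against 63.5, 31.9 and 42.5 CPM in Flox control. Heavy variable segments had sums of 39.3, 65.8 and 8.65 CPM in Celf1 AKO, against 10.6, 1.20 and 3.15 CPM in Flox control. Kappa variable segments had sums of 57.5, 97.8 and 25.2 CPM in Celf1 AKO, against 18.6, 2.54 and 4.94 CPM in Flox control. Of these 3 sums, the heavy variable one overlapped between the groups.

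No immunoglobulin gene passed the test over all genes. Of the 106 members, 52 passed the filter on low counts, and edgeR called 0 of the 52 higher, beside 0.0122% of all genes tested, and 0 lower, beside 0.0% of them. The lowest adjusted p was 0.215. At an unadjusted p under 0.05, 25 of the 52 were higher, beside 6.75% of all genes tested, and 0 were lower, beside 6.17%. The log2 fold change was positive for 50 of the 52, beside 47.5% of all genes tested, with a median of 2.83 beside -0.02 over all genes tested. Without the filter it was positive for 103 of the 106, beside 47.6% of all genes, with a median of 3.55. A gene could enter the table or pass the filter through the group where it was high, so these counts describe the members and were not tested.

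The number of calls depended on the method and on single libraries. DESeq2 called 16 of the 52 higher and 0 lower, beside 2.09% and 0.947% of all genes, and limma-voom called 0 in either direction, as it did over all genes (0.0%), with 19 higher and 0 lower at an unadjusted p under 0.05, beside 6.27% and 6.65% of all genes. With libraries left out after the data were seen, DESeq2 called 13, 5 and 59 members higher without Celf1 AKO replicates 1, 2 and 3, beside 1.49%, 0.849% and 6.13% of all genes. It called 28, 15 and 15 higher without Flox control replicates 1, 2 and 3, beside 3.2%, 1.14% and 0.575% of all genes. Without Celf1 AKO replicate 3, edgeR called 33 of 91 tested members higher and 0 lower, beside 1.43% and 1.76% of all genes. Of those 33, 10 were among the 16 that DESeq2 called with all libraries. Leaving out any other library gave 0 calls with edgeR.

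Read library by library, 20 of the 106 genes (18.9%) had all 3 Celf1 AKO values above all 3 Flox control values, beside 7.81% of all genes of the table. None of the 106 had all 3 below, beside 9.41% of all genes. Without Celf1 AKO replicate 3, a comparison added after seeing the data, 89 of the 106 genes did not overlap, beside 19.5% of all genes, and without Flox control replicate 1 the number was 38, beside 14.9%. The highest value lay in Celf1 AKO replicate 2 for 76 of the 106 genes, in Celf1 AKO replicate 1 for 22, in Celf1 AKO replicate 3 for 4 and in Flox control replicate 1 for 4. A gene highest in a Celf1 AKO library cannot have all 3 Celf1 AKO values below the controls. Since a gene could enter the table through the group where it was high, these counts of non-overlapping genes describe the members and were not tested.

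Ighm was the constant gene that separated the groups. It was at 63.2, 115 and 67.7 CPM in Celf1 AKO, against 18.2, 28.5 and 35.5 CPM in Flox control. Every Celf1 AKO library lay above every Flox control library, and the means were 82.0 ± 28.7 CPM in Celf1 AKO, against 27.4 ± 8.67 CPM in Flox control (SD over 3 libraries each). The fit put the log2 fold change at 1.58 ± 0.31 (SE) and the edgeR adjusted p at 0.227, which ran between 0.0518 and 0.697 when each library was left out in turn. DESeq2 gave an adjusted p of 0.0002. Ighm lies at chr12:113418558-113422730 on GRCm38.

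The switched heavy chain genes followed another pattern, in which Celf1 AKO replicate 3 lay within or below the range of the Flox control libraries. Igha, the constant region of IgA, was at 75.5, 147 and 5.04 CPM in Celf1 AKO, against 37.0, 2.32 and 5.57 CPM in Flox control. Celf1 AKO replicate 3 was below Flox control replicates 1 and 3, and the log2 fold change of 2.34 ± 1.27 (SE) had an edgeR adjusted p of 0.475. Ighg2c, an IgG2 constant region, was at 19.5, 40.5 and 1.81 CPM in Celf1 AKO, against 1.94, 0.458 and 0.627 CPM in Flox control. Celf1 AKO replicates 1 and 2 were at least 10 times the highest control, and replicate 3 was just under it. Its log2 fold change was 4.36 ± 1.08 (SE), with an edgeR adjusted p of 0.252, against 0.0126 with DESeq2 and 0.0275 with edgeR without Celf1 AKO replicate 3.

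The other IgG genes were likewise high in Celf1 AKO replicates 1 and 2. Ighg2b was at 25.0, 37.8 and 0.200 CPM in Celf1 AKO, against 5.13, 0.649 and 0.811 CPM in Flox control (edgeR adjusted p = 0.402). Ighg1 was at 11.7, 16.6 and 0 CPM in Celf1 AKO, against 1.17, 0 and 0 CPM in Flox control (edgeR adjusted p = 0.388). For both, Celf1 AKO replicate 3 was as low as or lower than every control. Ighg3 had 21, 82 and 2 counts in Celf1 AKO and 2, 0 and 2 counts in Flox control, and did not pass the filter. The coding sequences of Ighg2b and Ighg2c are 87.8% identical and the other pairs of IgG genes 76.7% to 78.8%, so reads in shared stretches may have been divided among them.

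The light chain constant genes overlapped between the groups. Igkc, the kappa constant region at chr6:70726435-70726966, was at 67.8, 122 and 18.8 CPM in Celf1 AKO, against 20.2, 2.64 and 6.00 CPM in Flox control. Celf1 AKO replicates 1 and 2 stood above all controls, while replicate 3 lay just below Flox control replicate 1. Its log2 fold change was 2.85 ± 0.87 (SE), with an edgeR adjusted p of 0.299 and 0.0704 without Celf1 AKO replicate 3. Iglc2, a lambda constant region, was at 0.528, 2.05 and 0.215 CPM in Celf1 AKO, against 0.172, 0.118 and 0.520 CPM in Flox control (edgeR adjusted p = 0.449).

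**Figure D1:**
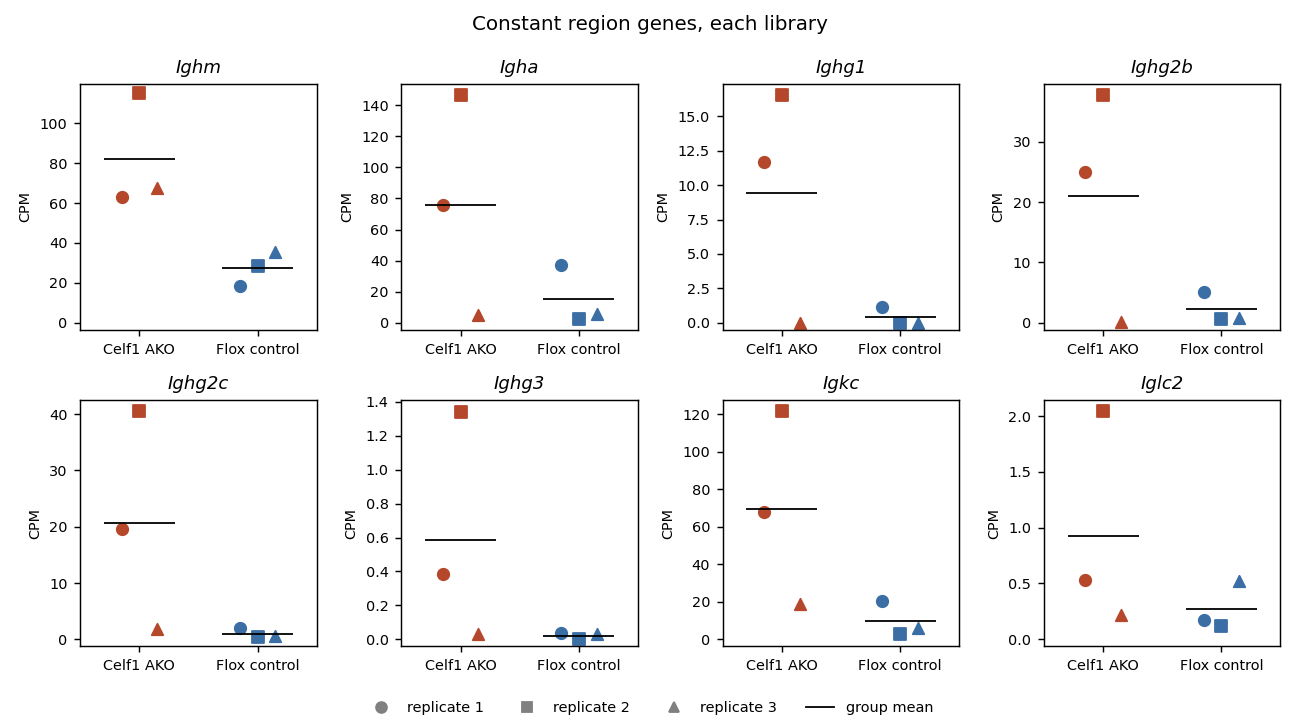
CPM (TMM-scaled, linear axes that differ between panels) of the 8 constant region genes in each Celf1 AKO (left, red) and Flox control (right, blue) library, with group means as lines. Ighm separated the groups, with 63.2 to 115 CPM in Celf1 AKO, against 18.2 to 35.5 CPM in Flox control, whereas for the switched genes Celf1 AKO replicate 3 (triangle) lay within or below the control values.

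Scaled to gene length, the composition of heavy chain transcripts split the 6 libraries in a way that cut across genotype. Switched genes (IgG and IgA) made up 63.3%, 63.7% and 8.31% of the summed heavy constant FPKM (the authors' length-scaled unit) in Celf1 AKO, against 64.4%, 8.88% and 13.2% in Flox control. Both Celf1 AKO replicates 1 and 2 and Flox control replicate 1 therefore had 35.6% to 36.7% Ighm, and the other 3 libraries had 86.8% to 91.7%. Igha alone was 29.3%, 30.9% and 4.56% of heavy constant FPKM in Celf1 AKO and 48.4%, 4.95% and 9.12% in Flox control. Ighg2c was 15.9%, 17.9% and 3.44% in Celf1 AKO and 5.31%, 2.05% and 2.15% in Flox control. Among the 3 libraries rich in switched transcripts, Flox control replicate 1 had the largest IgA share and the smallest Ighg2c share.

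The kappa level per heavy chain level followed the same division. The ratio of Igkc FPKM to summed heavy constant FPKM was 2.07, 2.01 and 1.34 in Celf1 AKO, against 2.08, 0.444 and 0.772 in Flox control. It was near 2 in the 3 libraries rich in switched transcripts and lowest in Flox control replicates 2 and 3. Lambda, read from Iglc2, made up 0.413%, 0.890% and 0.607% of the light chain constant FPKM (Igkc and Iglc2) in Celf1 AKO and 0.450%, 2.33% and 4.42% in Flox control. The only lambda variable segment of the table, Iglv2, had 0, 80 and 10 counts in Celf1 AKO and 0, 2 and 4 counts in Flox control.

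**Figure D2:**
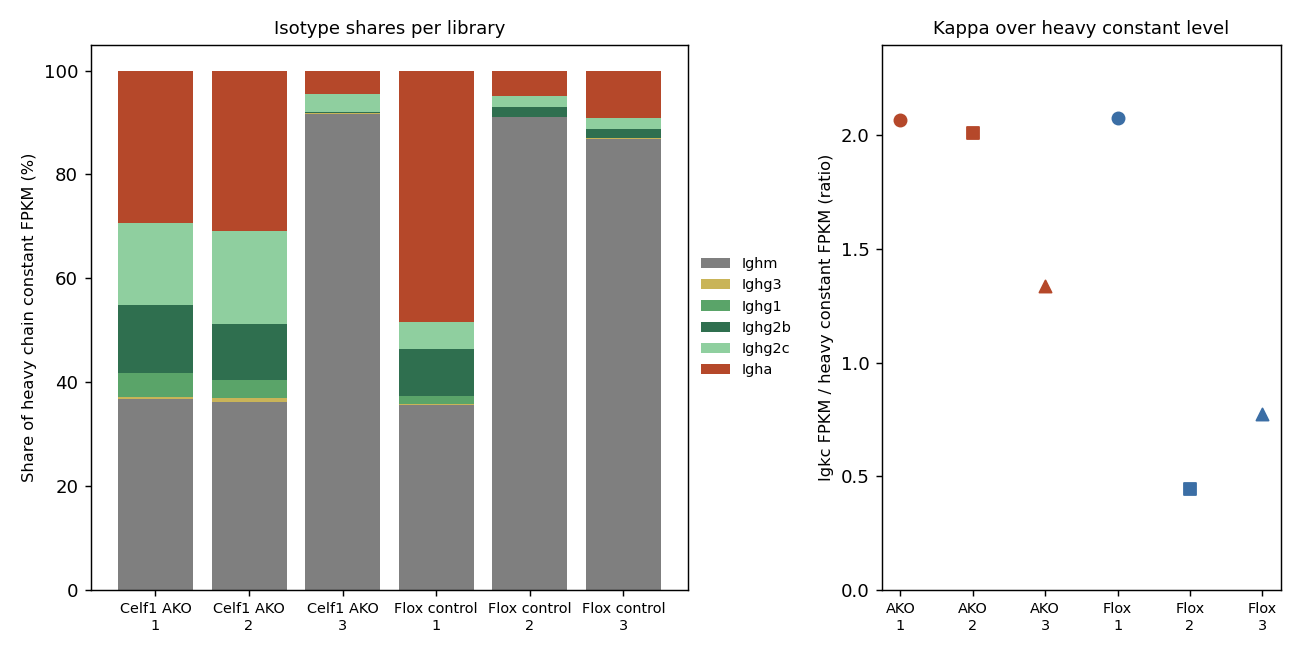
Left, the share (%) of each heavy constant gene in the summed heavy constant FPKM of each library; right, the ratio of Igkc FPKM to that sum, with Celf1 AKO in red and Flox control in blue and replicates 1, 2 and 3 as circle, square and triangle. Ighm made up 36.7%, 36.3% and 91.7% in Celf1 AKO replicates 1, 2 and 3, and 35.6%, 91.1% and 86.8% in Flox control replicates 1, 2 and 3.

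Among the tested variable segments, the heavy segment Ighv11-2 had the largest log2 fold change and the kappa segment Igkv14-126 the smallest p. Ighv11-2 had 304, 70 and 41 counts in Celf1 AKO, against 0 in all 3 Flox control libraries, and Igkv14-126 had 366, 67 and 62 counts in Celf1 AKO, against 0, 1 and 2 counts in Flox control. In mice these segments are known as the heavy and light chain of a recurrent antibody of B-1 cells, a B cell class common in body cavities, that binds phosphatidylcholine. Whether the 2 came from the same cells was not tested, and neither was called by edgeR with all libraries. The last 300 bases of the 2 coding sequences are shown, each read 5′ to 3′ from the GENCODE M21 transcripts of GRCm38. The codon of the conserved last cysteine before the joining point is in capitals.
Ighv11-2 (chr12:114048241-114048812, minus strand): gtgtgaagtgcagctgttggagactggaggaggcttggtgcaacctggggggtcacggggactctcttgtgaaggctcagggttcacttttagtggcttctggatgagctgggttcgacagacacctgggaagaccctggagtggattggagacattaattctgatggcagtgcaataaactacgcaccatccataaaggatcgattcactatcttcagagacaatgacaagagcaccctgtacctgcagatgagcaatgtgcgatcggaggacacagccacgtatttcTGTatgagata
Igkv14-126 (chr6:67896172-67896642, plus strand): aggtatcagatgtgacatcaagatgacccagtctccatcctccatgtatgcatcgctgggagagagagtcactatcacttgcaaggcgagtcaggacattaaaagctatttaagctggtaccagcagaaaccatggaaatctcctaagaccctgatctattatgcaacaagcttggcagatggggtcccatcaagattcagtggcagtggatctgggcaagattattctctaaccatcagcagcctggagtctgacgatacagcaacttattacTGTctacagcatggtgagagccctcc

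With a floor of 3 counts over the Flox control group, the mean of Ighv11-2 was at least 155-fold higher in Celf1 AKO. That mean rested mostly on replicate 1, the Celf1 AKO values being 5.53, 1.15 and 0.630 CPM. The edgeR adjusted p of Ighv11-2 was 0.227, against 0.0432 without Celf1 AKO replicate 3. For Igkv14-126 the log2 fold change was 7.36 ± 1.20 (SE), with the lowest edgeR adjusted p of all members, 0.215, against 0.0281 without Celf1 AKO replicate 3. Both were highest in Celf1 AKO replicate 1, where they were also the leading heavy and kappa segments. Ighv11-2 is 98.9% identical over its coding sequence to Ighv11-1, which was not analysed here, so some of its reads could belong to that gene. For Igkv14-126 the nearest segment, Igkv14-111, is 91.5% identical.

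Igkv14-111 also did not overlap between the groups, with 105, 279 and 13 counts in Celf1 AKO and 6, 1 and 8 counts in Flox control (edgeR adjusted p = 0.251). Igkv4-91, a kappa segment, had 29, 53 and 48 counts in Celf1 AKO, against 5, 4 and 0 counts in Flox control. Its Celf1 AKO libraries lay between 0.528 and 0.868 CPM, with a log2 fold change of 3.85 ± 0.73 (SE) and an edgeR adjusted p of 0.227. Ighv1-53 had 61, 217 and 34 counts in Celf1 AKO, against 7, 0 and 4 counts in Flox control (edgeR adjusted p = 0.227). Igkv4-55 had 123, 90 and 12 counts in Celf1 AKO and 1, 0 and 2 counts in Flox control, and Igkv2-137 had 60, 67 and 11 counts in Celf1 AKO and 0, 2 and 6 counts in Flox control. For Ighv1-53, Igkv4-55 and Igkv2-137 the lowest Celf1 AKO library was replicate 3.

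A second set of non-overlapping segments was carried mostly by Celf1 AKO replicate 3. Ighv6-6 had 13, 48 and 180 counts in Celf1 AKO, against 0, 0 and 2 counts in Flox control (log2 fold change 6.67 ± 1.31 SE, edgeR adjusted p = 0.227). Igkv3-2 had 41, 134 and 360 counts in Celf1 AKO, against 10, 0 and 8 counts in Flox control (edgeR adjusted p = 0.227). Igkv4-72 had 12, 32 and 456 counts in Celf1 AKO, against 0, 1 and 6 counts in Flox control (edgeR adjusted p = 0.262). Celf1 AKO replicate 3 thus had fewer variable counts than Celf1 AKO replicates 1 and 2 and yet was the highest library for these 3 segments.

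Other abundant segments overlapped between the groups. Igkv1-110 had the highest mean CPM of all variable segments, with 236, 772 and 488 counts in Celf1 AKO, against 628, 19 and 42 counts in Flox control (log2 fold change 1.07, edgeR adjusted p = 0.721). Leaving out 1 library gave values of 0.51 to 4.14, the highest when Flox control replicate 1 was the one left out. Igkv1-117, which is 97.2% identical to it, had 248, 614 and 22 counts in Celf1 AKO, against 8, 0 and 29 counts in Flox control (log2 fold change 4.67, edgeR adjusted p = 0.289). Flox control replicate 1 thus held many counts of Igkv1-110 and few of Igkv1-117. Igkv10-96 had 45, 529 and 9 counts in Celf1 AKO and 41, 27 and 19 counts in Flox control, with most counts in 1 library. Ighv3-6 had 191, 217 and 4 counts in Celf1 AKO and 84, 4 and 26 counts in Flox control. Ighv1-64 had 71, 160 and 16 counts in Celf1 AKO and 37, 0 and 15 counts in Flox control, and Igkv6-15 had 104, 170 and 28 counts in Celf1 AKO and 81, 6 and 11 counts in Flox control. All 6 of these segments were highest in Celf1 AKO replicate 2.

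The 2 tested segments with a negative log2 fold change had most of their control counts in Flox control replicate 1. Igkv3-4 had 14, 86 and 2 counts in Celf1 AKO, against 143, 11 and 3 counts in Flox control (log2 fold change -0.64 ± 1.45 SE, edgeR adjusted p = 0.886). Without Flox control replicate 1 its log2 fold change was 2.41. Ighv1-78, named after its values were seen, had 15, 69 and 2 counts in Celf1 AKO, against 106, 0 and 0 counts in Flox control (log2 fold change -0.32). Its log2 fold change was 0.24 without Celf1 AKO replicate 3 and was also positive without Flox control replicate 1.

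At the edge of the filter, the tested segments of lowest mean CPM were Igkv8-27, Ighv8-8 and Ighv9-1. Igkv8-27 had 12, 34 and 5 counts in Celf1 AKO and 0, 12 and 2 counts in Flox control. Ighv8-8 had 15, 29 and 4 counts in Celf1 AKO and 26, 0 and 4 counts in Flox control, and Ighv9-1 had 31, 23 and 0 counts in Celf1 AKO and 26, 0 and 0 counts in Flox control. The untested segments of highest mean CPM were Igkv8-30, Ighv5-17 and Igkv6-25, with most of their counts in Celf1 AKO replicates 1 and 2. Igkv8-30 had 33, 228 and 4 counts in Celf1 AKO and 5, 0 and 8 counts in Flox control. Ighv5-17 had 90, 137 and 0 counts in Celf1 AKO and 0, 0 and 2 counts in Flox control, and Igkv6-25 had 47, 167 and 0 counts in Celf1 AKO and 5, 0 and 1 counts in Flox control. Across all 106 members, 6 were at 0 in all 3 Flox control libraries, and in 88 of them 1 library held more counts than the other 5 together.

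**Figure D3:**
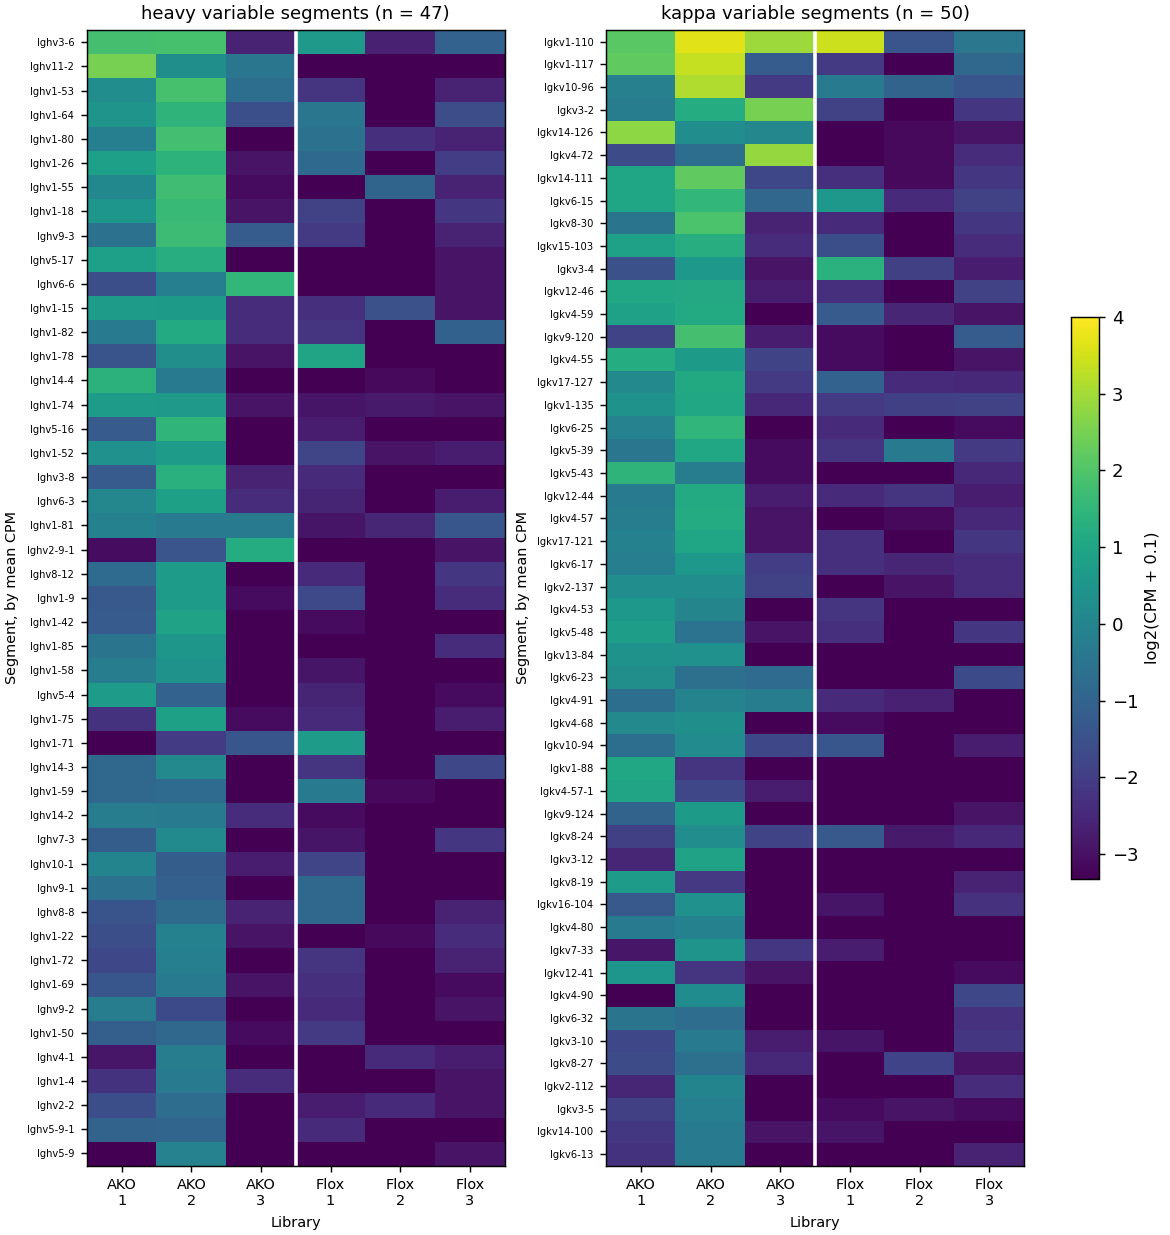
log2(CPM + 0.1) of the 47 heavy (left) and 50 kappa (right) variable segments in the 3 Celf1 AKO and 3 Flox control libraries, with segments ordered by mean CPM. Celf1 AKO replicates 1 and 2 were high for most segments, while Celf1 AKO replicate 3 and Flox control replicate 1 were high for a few, such as Igkv4-72 (456 counts in Celf1 AKO replicate 3) and Igkv1-110 (628 counts in Flox control replicate 1).

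The libraries differed in how many segments shared the variable counts. Heavy variable segments took 2157, 4018 and 563 counts in Celf1 AKO and 617, 81 and 206 counts in Flox control. The effective number of heavy segments, the inverse of the summed squared shares, was 20.1, 31.4 and 5.35 in Celf1 AKO and 11.4, 5.24 and 16.2 in Flox control. Kappa variable segments took 3159, 5973 and 1642 counts in Celf1 AKO and 1087, 172 and 323 counts in Flox control, and their effective number was 23.2, 20.3 and 4.61 in Celf1 AKO and 2.78, 7.57 and 20.4 in Flox control. For both chains the 2 groups overlapped, with an even spread in Celf1 AKO replicates 1 and 2 and Flox control replicate 3. Segments entered the table through their counts over all 6 libraries, and 79 of the 106 members had their highest count in Celf1 AKO replicate 2. There 0 of the 106 were at 0 counts, against 68 in Flox control replicate 2. Segments used mainly in a library of few counts could be missing, so effective numbers and shares describe the segments of the table only. In Celf1 AKO replicate 3 and Flox control replicate 1, 3 segments held 79.4% and 78.4% of the kappa variable counts.

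The leading heavy segment differed between most libraries. In Celf1 AKO replicate 1 it was Ighv11-2 with 14.1% of heavy variable counts (exact 95% interval 12.7% to 15.6%, counting error only). In Celf1 AKO replicate 2, Ighv1-53 and Ighv3-6 tied at 217 counts, 5.40% each, and in Celf1 AKO replicate 3 it was Ighv6-6 with 32.0% (28.1% to 36.0%). In Flox control replicate 1 it was Ighv1-78 with 17.2% (14.3% to 20.4%), in Flox control replicate 2 Ighv1-55 with 28 of 81 counts or 34.6% (24.3% to 46.0%), and in Flox control replicate 3 Ighv3-6 with 12.6% (8.41% to 17.9%). Kappa usage was more alike, since Igkv1-110 led in 4 of the 6 libraries. It held 12.9% of kappa variable counts in Celf1 AKO replicate 2 and 29.7% in Celf1 AKO replicate 3, against 57.8% in Flox control replicate 1 and 13.0% in Flox control replicate 3. Igkv14-126 led in Celf1 AKO replicate 1 with 11.6%, and Igkv5-39 in Flox control replicate 2 with 27.3% of 172 counts. Between any pair of libraries, the 10 leading heavy segments shared 1 to 4 members and the 10 leading kappa segments 2 to 5.

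How alike segments are in sequence bears on how reads could be assigned. The last bases of the coding sequences, up to the joining point, are set out here for the segments that led a library, with the cysteine codon in capitals (GENCODE M21 transcripts, GRCm38, 5′ to 3′).
Ighv1-53: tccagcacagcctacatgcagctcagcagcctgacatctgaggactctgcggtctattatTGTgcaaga
Ighv1-55: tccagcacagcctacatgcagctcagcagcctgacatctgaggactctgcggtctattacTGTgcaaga
Ighv1-78: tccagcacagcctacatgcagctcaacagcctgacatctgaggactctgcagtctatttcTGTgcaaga
Ighv3-6: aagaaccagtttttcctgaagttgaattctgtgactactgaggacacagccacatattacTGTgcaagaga
Ighv6-6: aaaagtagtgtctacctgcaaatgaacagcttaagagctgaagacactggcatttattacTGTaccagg
Igkv1-110: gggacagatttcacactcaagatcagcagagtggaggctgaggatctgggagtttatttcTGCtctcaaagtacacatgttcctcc
Igkv5-39: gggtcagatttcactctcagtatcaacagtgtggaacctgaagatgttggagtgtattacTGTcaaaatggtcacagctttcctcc
Over these 69 bases Ighv1-53 and Ighv1-55 differ at 1 base, T60C, counted from the first base shown with Ighv1-53 first. Over the whole coding sequence the pair are 95.4% identical. Of the 98 variable segments, 55 have another annotated segment or segment pseudogene at 95% identity or more and 8 at 98% or more, with a median of 95.4% to the nearest. A count for 1 segment may therefore hold reads of a relative, and somatic mutation in antibody genes can move reads between them, so the values of single segments are less certain than those of the sums. The Ighv1 family, the largest with 24 of its 53 annotated members in the table, held 43.3%, 58.6% and 26.6% of heavy variable counts in Celf1 AKO and 67.7%, 79.0% and 60.2% in Flox control. Every Flox control library had a larger Ighv1 share than every Celf1 AKO library. The margin was narrow, at 58.6% in Celf1 AKO replicate 2, against 60.2% (124 of 206 counts) in Flox control replicate 3. Flox control replicate 2 held only 81 heavy variable counts. In Celf1 AKO replicate 3 the Ighv6 and Ighv2 families held 33.0% and 25.4%.

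**Figure D4:**
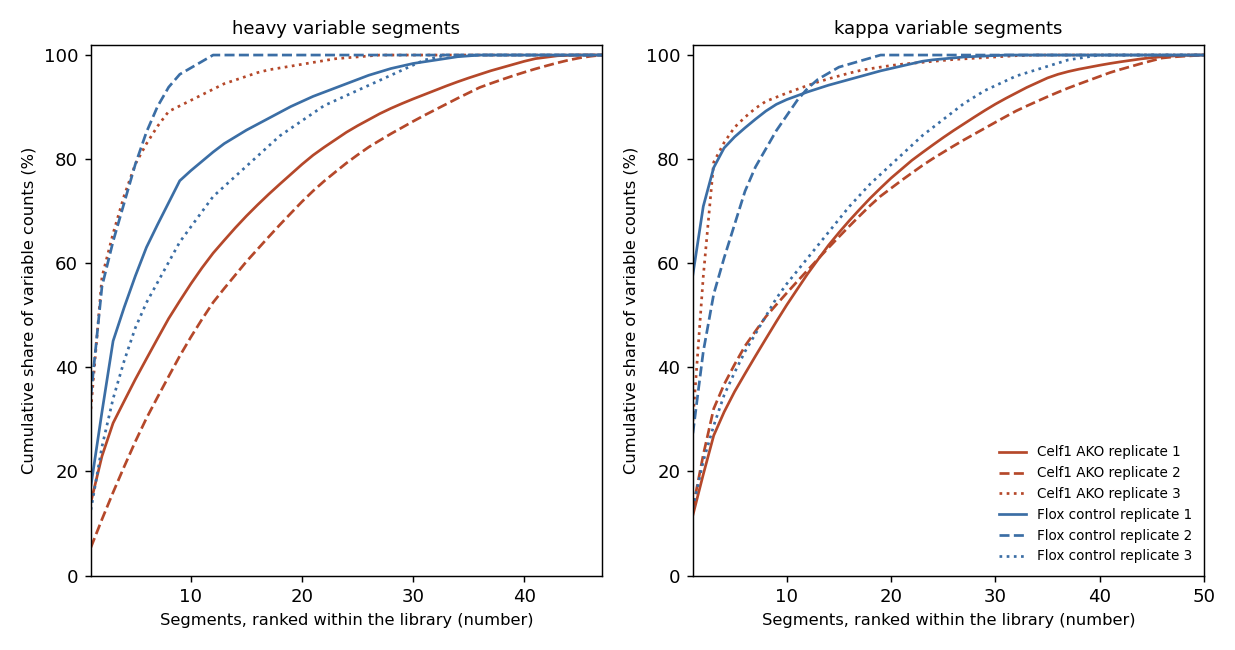
Cumulative share (%) of variable segment counts against the number of segments, ranked within each library, for heavy (left) and kappa (right) segments, with Celf1 AKO in red and Flox control in blue. Curves that climb at once belong to libraries with few leading segments, such as Celf1 AKO replicate 3 (79.4% of kappa counts in 3 segments) and Flox control replicate 1 (78.4%), while Celf1 AKO replicates 1 and 2 and Flox control replicate 3 climb slowly for kappa.

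Genes of antibody-secreting cells gave a mixed picture. Of 16 plasma cell genes, 15 were tested, and edgeR called 0 higher and 0 lower, beside 0.0122% and 0.0% of all genes tested. Of their log2 fold changes, 9 were positive and 6 negative, beside 47.5% positive over all genes tested, and the median was 0.14. Jchain, which encodes the chain that joins IgA and IgM into polymers, was at 37.8, 73.1 and 11.6 CPM in Celf1 AKO, against 13.3, 1.84 and 2.13 CPM in Flox control. The 6 libraries stood in the same order for Jchain as for Igkc, and the log2 fold change was 2.84 ± 0.92 (SE, edgeR adjusted p = 0.305). Mzb1, a chaperone of antibody assembly, was at 0.218, 0.982 and 0.415 CPM in Celf1 AKO, against 0.172, 0.0886 and 0.214 CPM in Flox control (edgeR adjusted p = 0.333). These CPM values did not overlap, by a narrow margin. The Mzb1 counts, 12, 60 and 27 in Celf1 AKO and 10, 6 and 14 in Flox control, did overlap. Irf4, a transcription factor of plasma cells that adipocytes and macrophages also use, was at 901, 684 and 133 CPM in Celf1 AKO, against 191, 47.1 and 54.1 CPM in Flox control (log2 fold change 2.56, edgeR adjusted p = 0.301). It lay above Igkc in every library, with Igkc at 67.8 CPM in Celf1 AKO replicate 1 and 2.64 CPM in Flox control replicate 2. Which cells the Irf4 RNA came from was not tested.

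The rest of the plasma cell list differed less between the groups. Tent5c, which encodes a poly(A) polymerase that extends antibody mRNAs, was at 15.7, 10.4 and 13.1 CPM in Celf1 AKO, against 8.64, 5.67 and 6.67 CPM in Flox control (log2 fold change 0.90 ± 0.23 SE, edgeR adjusted p = 0.252, DESeq2 adjusted p = 0.0111). Sdc1, the plasma cell surface marker syndecan-1, was at 12.7, 10.8 and 13.6 CPM in Celf1 AKO, against 10.6, 9.74 and 8.51 CPM in Flox control, and epithelial cells also express it. Xbp1, the transcription factor of the secretory programme, was at 185, 172 and 249 CPM in Celf1 AKO, against 277, 180 and 197 CPM in Flox control, and Txndc5 and Edem2 had log2 fold changes of -0.03 and 0.14. Prdm1 had a log2 fold change of 0.47, Tnfrsf13b of -0.46, Derl3 of -0.12, Pou2af1 of -0.27, Fkbp11 of 0.13, Slamf7 of -0.30 and Eaf2 of 0.14, with edgeR adjusted p-values of 0.595 to 0.945. Summed over the list, the level was 558 to 1316 CPM in Celf1 AKO, against 399 to 643 CPM in Flox control, most of those counts from Irf4, Xbp1 and Txndc5.

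Genes of B cells before the plasma cell stage did not follow the immunoglobulin sum over the libraries. Of 16 B cell genes, 9 were in the table and 6 were tested. In either direction edgeR called 0 of them, beside 0.0122% higher and 0.0% lower of all genes tested. All 6 log2 fold changes were negative, beside 47.5% positive over all genes tested, and the median was -0.58. Sums over the 9 genes were 7.03, 2.86 and 3.69 CPM in Celf1 AKO, against 2.76, 4.40 and 13.3 CPM in Flox control. Flox control replicate 3 was the highest library for 8 of the 9. Pax5, the transcription factor that defines the B cell identity, was at 0.182, 0.0491 and 0.0307 CPM in Celf1 AKO, against 0, 0 and 0.842 CPM in Flox control. Blk, a B cell kinase, was at 0.601, 0.147 and 0.0615 CPM in Celf1 AKO, against 0.0343, 0.0590 and 1.32 CPM in Flox control. Bank1, a B cell adaptor, was at 1.82, 0.557 and 0.430 CPM in Celf1 AKO, against 0.206, 0.812 and 1.91 CPM in Flox control (edgeR adjusted p = 0.978). Flox control replicate 3, the highest library for these genes, had the second lowest immunoglobulin sum. Within Flox control the B cell sums rose from replicate 1 to replicate 3, as Ighm did. Within Celf1 AKO the order of the B cell sums was the reverse of that of Ighm.

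The other B cell genes behaved likewise. Spib was at 0.0182, 0.0655 and 0.154 CPM in Celf1 AKO, against 0.103, 0.118 and 1.64 CPM in Flox control. Fcrla had a log2 fold change of -0.93, Cxcr5 of -0.92, Ltb of -0.67, Ly6d of -0.49 and Cd72 of -0.07, with edgeR adjusted p-values of 0.436 to 0.966. Ms4a1, Cd79a, Cd79b, Cd22, Fcer2a and Cr2 were among the genes not analysed here. The part of B cells or plasma cells in the immunoglobulin levels was not tested.

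**Figure D5:**
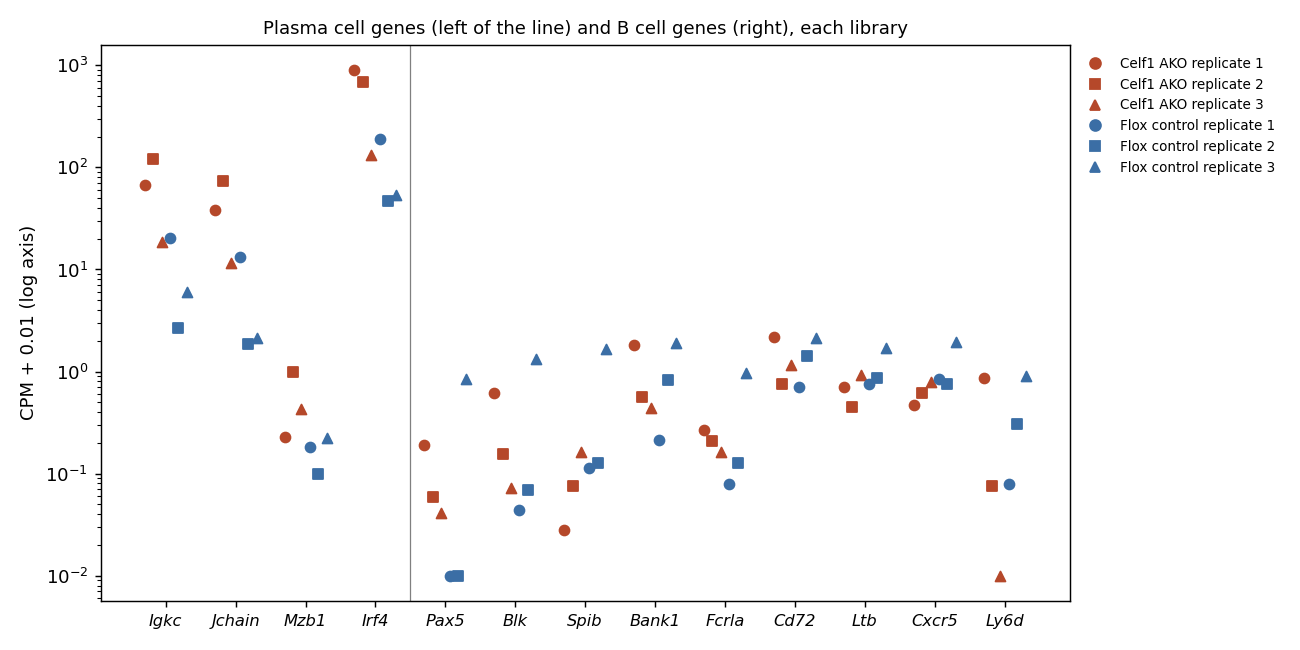
CPM + 0.01 (log axis) of Igkc and 3 plasma cell genes (left of the line) and of the 9 B cell genes of the table (right of the line) in each library. The 3 plasma cell genes drawn had the largest log2 fold changes of the 15 tested, and the others are not drawn. Adipocytes and macrophages also use Irf4. Over those 15, 9 log2 fold changes were positive and 6 negative, with a median of 0.14. Jchain follows Igkc library by library, while Flox control replicate 3 (blue triangle) is highest for 8 of the 9 B cell genes, with Pax5 at 0.842 CPM there and 0 in the other 2 control libraries. Values of 0 are drawn at 0.01.

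Genes of the surroundings and of antibody handling were also without calls by edgeR, beside 0.0122% higher and 0.0% lower of all genes tested. Of the 5 B cell survival factor genes, Il6, a cytokine that supports plasma cells, was at 1.62, 0.786 and 0.369 CPM in Celf1 AKO, against 0.274, 0.0886 and 0.0459 CPM in Flox control. It did not overlap between the groups (log2 fold change 2.76 ± 0.77 SE, edgeR adjusted p = 0.278, DESeq2 adjusted p = 0.0247). Cxcl12, a chemokine that retains plasma cells in their niche, was at 148, 189 and 241 CPM in Celf1 AKO, against 147, 149 and 117 CPM in Flox control (edgeR adjusted p = 0.357). All 5 tested genes of antibody transport had negative log2 fold changes, with a median of -0.21. Fcgrt, the neonatal Fc receptor that protects IgG from breakdown, was at 392, 348 and 323 CPM in Celf1 AKO, against 411, 384 and 437 CPM in Flox control (edgeR adjusted p = 0.508), and Trim21, a cytosolic antibody receptor, had a log2 fold change of -0.47.

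Of 8 tested Fc receptor genes, 4 log2 fold changes were positive and 4 negative, with a median of 0.03. Ms4a2 and Fcer1a, subunits of the IgE receptor of mast cells and basophils, had the smallest p-values. Ms4a2 was at 0.0728, 0.0655 and 0.154 CPM in Celf1 AKO, against 0.137, 0.443 and 0.979 CPM in Flox control (edgeR adjusted p = 0.302). Fcer1a was at 0.983, 0.262 and 0.907 CPM in Celf1 AKO, against 1.25, 1.27 and 2.54 CPM in Flox control (edgeR adjusted p = 0.388). In the list of rearrangement and class switching, Rag1, Rag2 and Dntt were among the genes not analysed here. Lig4, the ligase that closes the joined segments and serves repair in all cells, was at 3.15, 3.52 and 6.21 CPM in Celf1 AKO, against 6.90, 9.51 and 9.21 CPM in Flox control (log2 fold change -0.99 ± 0.30 SE, edgeR adjusted p = 0.293, DESeq2 adjusted p = 0.0498, and edgeR adjusted p = 0.0347 without Celf1 AKO replicate 3). Ssbp1, which was put in this list but encodes a mitochondrial DNA-binding protein, had a log2 fold change of -0.34.

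Markers of other tissue and blood cells also varied between libraries. T cell genes summed to 17.9 to 44.6 CPM in Celf1 AKO, against 28.5 to 37.5 CPM in Flox control, with 11 of 14 log2 fold changes positive. Cd3e and Trac, parts of the T cell receptor, did not overlap between the groups (edgeR adjusted p = 0.317 and 0.385). Of the 10 genes of lymph node stroma and high endothelium, 4 were in the table. Cxcl13, the chemokine that draws B cells into follicles, was at 39.2, 122 and 118 CPM in Celf1 AKO, against 66.9, 38.0 and 47.0 CPM in Flox control (edgeR adjusted p = 0.421), and Madcam1 had a log2 fold change of 1.11. Ccl21a, Ccl19, Glycam1, Chst4 and Fdcsp were not analysed here.

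All 6 tested genes of milk gland epithelium, whose tissue lies in the same fat pad, had positive log2 fold changes with a median of 1.34. Their sums were 29.7, 14.2 and 9.17 CPM in Celf1 AKO, against 6.71, 9.14 and 5.25 CPM in Flox control. Of the 6, 5 were highest in Celf1 AKO replicate 1. Ltf, which is also in the neutrophil list, had 438, 86 and 18 counts in Celf1 AKO, against 6, 46 and 0 counts in Flox control. Krt8 and Krt18 were not analysed here. Prlr, the prolactin receptor, was at 9.21, 9.61 and 5.35 CPM in Celf1 AKO, against 4.20, 4.80 and 4.13 CPM in Flox control, without overlap (edgeR adjusted p = 0.289, and 0.0342 without Celf1 AKO replicate 3; DESeq2 adjusted p = 0.0371), and Cdh1 had a log2 fold change of 1.22. Neutrophil genes, led in order of p by Ngp and Csf3r (DESeq2 adjusted p = 0.117 and 0.0495), summed to 23.6, 26.4 and 109 CPM in Celf1 AKO, against 7.51, 16.1 and 3.20 CPM in Flox control. Haemoglobin and other red cell genes, led by Slc4a1 and Hba-a2, summed to 598, 557 and 1271 CPM in Celf1 AKO, against 588, 413 and 351 CPM in Flox control. All 6 red cell genes and 5 of 6 neutrophil genes were highest in Celf1 AKO replicate 3, the Celf1 AKO library low in switched immunoglobulin. Macrophage genes, among them Lyz2 and C1qa, summed to 526 to 1512 CPM in Celf1 AKO, against 954 to 1334 CPM in Flox control. The part of these cells in the immunoglobulin values was not tested.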

How the data were processed

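Libraries of mouse iWAT mRNA were read as deposited. The counts are the authors' whole-number read counts per gene, and the FPKM values are the authors' length-scaled values for the same genes. HISAT2, RSEM 1.3.1 and the builds GRCm38 and mm10 are named in the submitters' processing notes; the annotation, strand setting and filters were not given there. Every gene of the deposited table had at least 53 counts over the 6 libraries, so segments with fewer are outside it, and how the counting divided reads between near-identical segments is not given.

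Gene IDs were matched to GENCODE M21 (16528 of 16627 named), and members were taken by gene type. Counts of the whole table were filtered (filterByExpr, 16366 genes kept) and fitted with edgeR 4.0.16 (TMM, robust quasi-likelihood, genotype as the only term), with Benjamini-Hochberg adjustment over all genes tested and calls at an adjusted p under 0.05; the standard error is the log2 fold change over the root of F. The steps were tested on simulated data with known changes. DESeq2 1.42.0, limma 3.58.1 (voom, and log2 of FPKM plus a pseudocount of 1 or 0.1), RLE or library-size scaling, other filters, a replicate block and leaving out each library were the alternatives. Sums and shares are given per library without a test, with exact binomial intervals at 95%; molecular identifiers are not mentioned in the labels, so intervals and floors cover counting error only. With 3 libraries a group, an exact two-sided permutation test of 1 value cannot go below p = 0.1.

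The members and lists were chosen with earlier results of these data known. Named genes are all constant genes, the 12 variable segments of highest mean CPM, up to 10 that did not overlap between groups in order of p, the extremes of the fold change, those at the edge of the filter, and for each list the called members or the 2 of smallest p, with every gene of the B cell and plasma cell lists; segments that led a library were named after their values were seen. No pair of libraries agreed within sampling noise.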

Additional observations from a re-analysis of the deposited data

How the results depend on the processing

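With edgeR, 0 immunoglobulin genes were called under RLE or library-size scaling, without the filter, with at least 1 CPM in 3 libraries (10 members left) and with limma on FPKM; the call count was 16 with DESeq2 (5 to 59 with a library left out), and 0 to 33 with edgeR when each library was left out, 33 being without Celf1 AKO replicate 3. The median log2 fold change was 2.83, and 3.55 with no filter, 1.34 with limma on log2(FPKM + 1) and 1.16 with log2(FPKM + 1) and no filter, where the pseudocount shrinks low genes; it ran from 2.06 to 4.48 over the left-out libraries. The log2 ratio of the group means of summed CPM ran from 1.81 to 2.98 for all members, 1.55 to 2.59 for heavy constant genes, 2.17 to 4.00 for Igkc, 2.27 to 4.12 for heavy and 2.25 to 4.01 for kappa variable segments (4.01 without Flox control replicate 1), 1.90 to 4.61 for switched genes and 1.26 to 1.81 for Ighm. In the lists, DESeq2 called 4 genes higher and 1 lower, beside 2.09% and 0.947% of all genes. Higher were 1 of 15 tested plasma cell genes, 1 of 4 survival factor, 1 of 6 milk gland and 1 of 6 neutrophil genes. Lower was 1 of 7 tested genes of the rearrangement and class switching list. With edgeR, leaving out each library gave 0 to 1 in each direction. Those calls came without Celf1 AKO replicate 3, beside 1.43% higher and 1.76% lower of all genes. Among the 52 tested members, the direction reversed for 5 in at least 1 edgeR fit with a library left out: Ighv8-8, Igkv9-120 and Ighv1-59 (-0.04) without Celf1 AKO replicate 2, Ighv1-59 also without Flox control replicates 2 or 3, Igkv3-4 and Ighv1-78 without Flox control replicate 1, and Ighv1-78 without Celf1 AKO replicate 3. Igkv9-120 had a log2 fold change of 3.35 with all libraries and -0.09 without Celf1 AKO replicate 2. Ighv1-78 was also positive with limma-voom (2.27), with limma on log2(FPKM + 1) without the filter (0.18) and with the replicate block (1.07). Over the left-out libraries the log2 fold change ran from -0.0074 to 3.07 for Ighv8-8 and from -2.65 to 2.41 for Igkv3-4; the cause was not tested.

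The labels give both groups the replicate numbers 1 to 3, but deviations of same-numbered libraries correlated at 0.088, -0.059 and 0.205, so the numbers were not taken to pair them. With a replicate block, 1 immunoglobulin gene was called, Igkv4-72 (edgeR adjusted p = 0.0476), among 9 genes called higher and 3 lower over all genes. Depth limits the single segments: 50 of the 106 had under 10 counts over the 3 Flox control libraries.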
